A study of Arabidopsis thaliana with 28 samples.

Results

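The windows described here lie in the Arabidopsis thaliana genome, are transcribed by RNA polymerase V (Pol V), and carried more CHH methylation in nrpe1, a mutant of the largest subunit of Pol V, than in Col-0. They are 2849 of the 158314 windows of 200 bp in the authors' list of targets of RNA-directed DNA methylation (RdDM), and the whole table holds 794311 windows. The windows were chosen by measured CHH levels: a window was counted where its level in nrpe1 was at least 1.5 times that in Col-0 and at least 5 percentage points above it. A CHH level was listed for both genotypes in 134490 RdDM windows, so the gained windows were 2.12% of those that could qualify. These levels were averaged by the authors over each genotype's bisulfite samples and come without read coverage. CHH, CHG and CG levels are therefore given as descriptions, with no error and no test.

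RdDM is the pathway by which plants add methyl groups to cytosines in every sequence context. Small interfering RNAs bound to ARGONAUTE4 (AGO4) pair with the non-coding transcripts of Pol V and bring in the methyltransferase DRM2, which acts on CHH sites (H is A, C or T). A second route does not need Pol V: CMT2 and CMT3 bind histone H3 methylated at lysine 9 and methylate CHH and CHG sites in long heterochromatic transposons, while MET1 copies CG methylation when DNA replicates. Loss of Pol V is known for lower CHH at short transposons and transposon edges, so windows with more CHH in nrpe1 go the other way.

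Pol V transcription was measured by immunoprecipitation with an antibody to NRPE1 and sequencing of RNA 5′ ends (IPARE) in 24 libraries from seedlings of 18 days, all in the Columbia ecotype. Col-0, the wild type, has 6 libraries and nrpe1 has 5. The mutants spt5l, ago4, dms5-1 and drd3-3 have 2 each, and drd1, dms3, suvh2, suvh9 and the double mutant suvh2/suvh9 have 1 each. Methylation was measured by bisulfite sequencing of 2 Col-0 and 2 nrpe1 leaf samples from plants of 3.5 weeks, so the methylation and the Pol V data come from different tissues and ages. SPT5L (KTF1) and AGO4 act on Pol V transcripts downstream of the polymerase. DRD1 and DMS3 belong to a complex that Pol V needs for transcription, and SUVH2 and SUVH9 bind methylated DNA and recruit that complex. In the RefSeq gene table of TAIR10.1, DMS5 and DRD3 are listed as other names of the NRPE1 gene (NRPD1B in that table), so dms5-1 and drd3-3 carry lesions in the gene that is also mutated in nrpe1. Alleles of the other mutants are not analysed here.

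Library totals ran from 785943 to 6957714 counts. Levels are given as CPM, relative to these totals. The titles sort the libraries into 6 sets, 1 without a tag and those tagged gp2 to gp6, each with its own Col-0 library. The 9 green-tissue genes checked summed to 278 to 2100 CPM, the root genes to at most 1.62 CPM, and the pollen genes reached 586 CPM in 1 library. Counts over a mutated gene need not fall in its mutant. NRPE1 had 1.82 to 3.68 CPM in Col-0 and 0 to 4.66 CPM in nrpe1, and KTF1 was higher in spt5l (91.1 and 105 CPM) than in Col-0 (7.79 to 19.8 CPM), as was DMS3 in dms3 (41.8 CPM against 1.72 to 5.49). AGO4, DRD1 and SUVH2 lay within the Col-0 range in their single mutants, and SUVH9 in suvh9 had 21.8 CPM against 3.64 to 20.9. Labels tie the class lists to Col-0 and nrpe1 of 3 sets (untagged, gp3, gp4), so the choice of RdDM windows already used their Pol V counts.

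In the gained windows the median CHH level went from 6.98% in Col-0 to 14.1% in nrpe1, and the median gain was 6.72 percentage points. The loss of CHH by the same rule turned around was far more frequent, with 23631 RdDM windows (17.6%), and 108010 windows met neither rule. The rule was met by 87 windows (0.0604%) of the Pol V class outside RdDM and by 177 (0.047%) of the class without Pol V transcription, where most windows had no CHH methylation in Col-0. The share depends on the starting level. Among windows with 5 to 10% CHH in Col-0, 3.09% of RdDM windows gained and 11.2% lost, against 2.03% and 1.29% in that last class. Among RdDM windows starting at 20% or more, 0.201% gained and 76.3% lost.

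The threshold runs through a dense part of the distribution. Of the gained windows, 564 lay within 0.5 points inside the 5-point limit and 601 RdDM windows lay within 0.5 points outside it. The window chr1:11067301-11067500 was inside, with 0% in Col-0 and 5.0% in nrpe1, and chr4:1871551-1871750 was outside, with 2.58% and 7.58%. A gain of 10 points and a ratio of 2 left 414 windows. In Col-0, 138 of the gained windows (4.84%) had a CHH level of exactly 0, the same share as the windows that met neither rule.

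CHG methylation, set mainly by CMT3, was higher in nrpe1 in most gained windows. Its median went from 37.2% to 46.8%, the median change was 8.59 points, and 2028 of the 2442 windows with both levels were up (83.0%). In windows that met neither rule the median CHG change was 1.99 points with 60.8% up, and in windows that lost CHH it was −14.4 points with 13.5% up. CG methylation moved less: its median was 79.4% in Col-0 and 82.6% in nrpe1, with a median change of 2.84 points and 1607 of 2369 windows up (67.8%, against 55.5% of the windows with neither). Both CHG and CG were up in 1292 of 2198 windows (58.8%), against 37.8% of the windows with neither. These levels come from the same samples as the rule, and a library effect on all contexts was not tested.

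Missing levels give the only view of depth. A CHG level was missing in at least 1 genotype in 14.3% of the gained windows and a CG level in 16.8%, against 5.64% and 6.51% of the windows with neither. The windows that lost CHH were alike in this, at 18.2% and 15.5%. Whether a window without a CHG level has few CHG sites or few reads cannot be told apart here, and the part of low depth in the gains was not tested.

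Most gains stood alone. Joined where they overlap or touch, the gained windows formed 2388 regions, of which 2037 were a single window (85.3%), 297 held 2 windows and 54 held 3 or more (218 windows). Windows overlap by 50 bp, so a pair can share the same cytosines. The larger regions had the larger CHG changes: the median change was 7.81 points in single windows, 9.69 in pairs and 16.5 in regions of 3 or more, with 80.0%, 88.6% and 93.3% of the windows up. The share with a missing CHG level fell along the same order, from 17.0% to 8.42% and 4.59%. The median of the summed Col-0 Pol V count was 8, 8 and 19.

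Windows near a gained window that did not themselves meet the rule, which caps their change, had smaller CHH changes. In RdDM windows that share 50 bp with one, the median change was 1.40 points. In RdDM windows starting 300 bp away, which share no base with it, the median was −0.017 points with 49.5% up (n = 3667), and for windows of any class it was 0.01 points with 50.2% up (n = 4022). All RdDM windows together had a median of −0.729 points and 35.9% up. Around regions of 3 or more windows the median at 300 bp was 1.21 points with 69.2% up (n = 78), and around single windows −0.105 points. CHG was up by a median of 3.49 points at 300 bp around all regions.

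**Figure D1:**
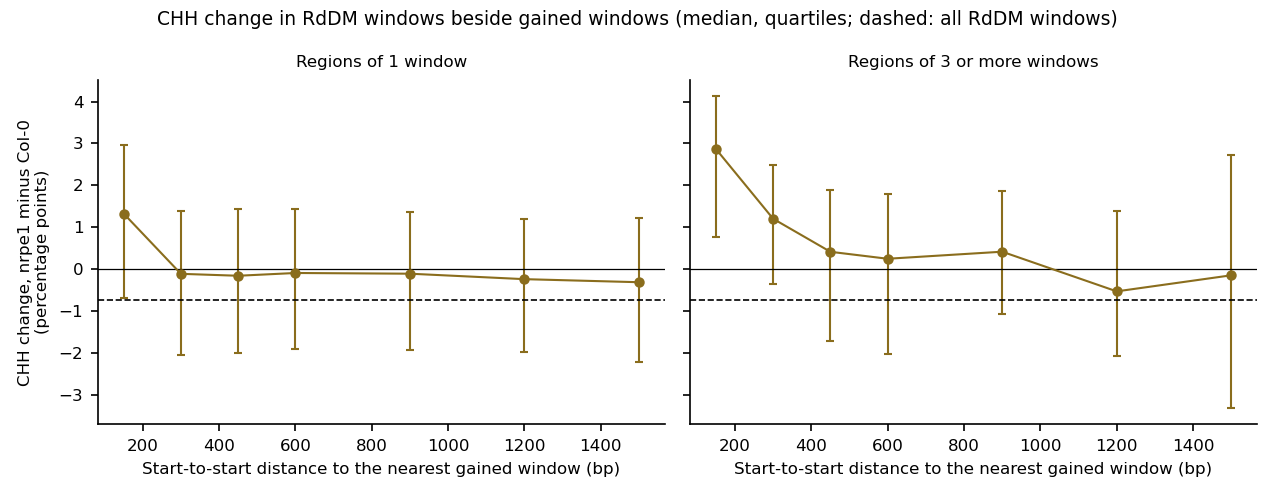
CHH change (nrpe1 minus Col-0, percentage points) in RdDM windows against their start-to-start distance (bp) from the nearest gained window, beside regions of 1 window and of 3 or more. Points are medians and bars run between the quartiles; the dashed line is the median of all RdDM windows, −0.729 points, and at 300 bp the medians are −0.105 and 1.21 points.

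Gained windows lay mostly where genes are few, as did the windows with neither change: 61.6% and 57.2% were in 1-Mb bins with a protein-coding share under 20%, against 28.0% of windows that lost CHH. This share is that of the windows in a bin with their midpoint inside a protein-coding gene. In bins with a share under 20% 1754 windows gained (2.5%) and 9.43% lost, while in bins with 60% or more 285 gained (1.53%) and 34.0% lost. The 5 chromosomes were similar, at 1.85%, 1.99%, 2.26%, 2.2% and 2.28% for chromosomes 1 to 5. By annotation, in which transposon genes are often listed as pseudogenes, 46.9% lay in a pseudogene, 45.2% in no gene and 7.48% in a protein-coding gene. That is close to the windows with neither change (44.9%, 43.7% and 10.3%) and unlike the windows that lost CHH (12.6%, 77.1% and 8.51%). Within pseudogenes the share that gained was 1.66% where the pseudogene was shorter than 1 kb and 2.94% at 4 to 8 kb, and the share that lost was 13.5% and 4.26%. The median length of the pseudogene holding a window was 3.94 kb for gained, 3.58 kb for neither and 2.87 kb for lost windows. From a gained window the nearest window that lost CHH started at a median of 1950 bp away, against 1500 bp from a window with neither change and 4275 bp from regions of 3 or more gained windows.

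Gains were rarest where Pol V counts were highest. In 4 equal groups of RdDM windows by their summed Col-0 count, with medians of 3, 8, 19 and 80 counts, 2.53%, 2.8%, 2.19% and 0.958% gained CHH. The share that lost rose from 3.2% to 48.9%. In the highest group the 322 windows that did gain had the largest median CHG change, 14.2 points, against 7.96 in the lowest. These groups use Col-0 libraries that also entered the class lists.

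**Figure D2:**
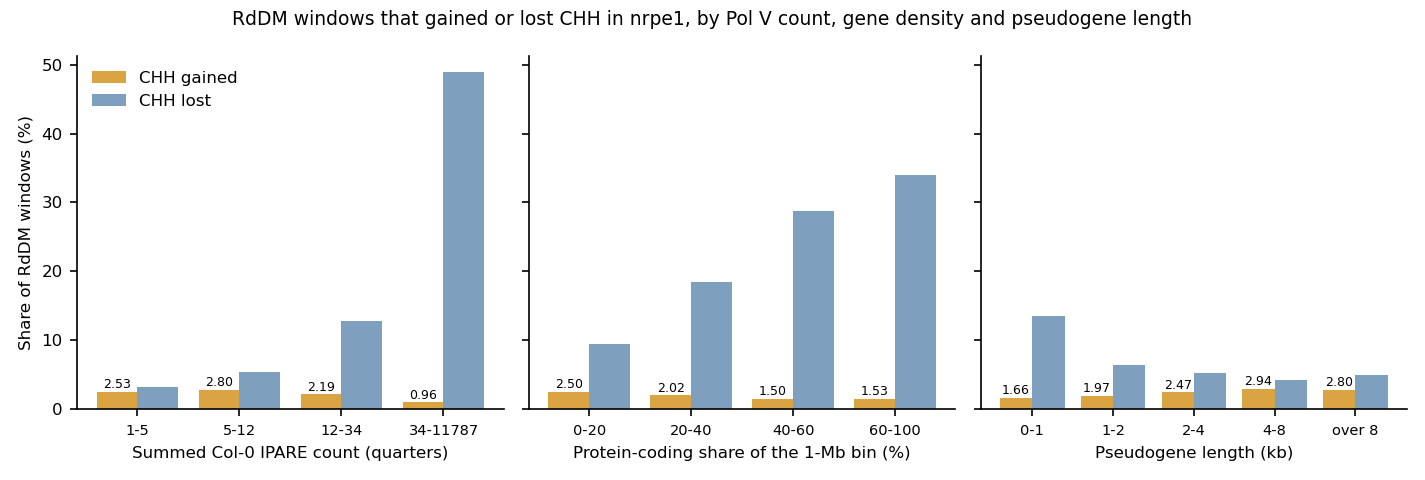
Share of RdDM windows (%) that gained or lost CHH in nrpe1, in 4 equal groups by summed Col-0 IPARE count, by the protein-coding share of the surrounding 1-Mb bin, and by the length of the pseudogene that holds the window. Over the 4 count groups the lost share runs from 3.2% to 48.9% and the gained share lies between 0.958% and 2.8%.

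Pol V signal in the gained windows was low in Col-0 and close to absent in nrpe1. The median summed Col-0 count was 9 per window, as in windows with neither change, against 72 in windows that lost CHH. The mean level per gained window was 0.906 ± 0.196 CPM in Col-0 (SD, n = 6), with a lowest library of 0.564, a median of 0.998 and a highest of 1.07. In nrpe1 it was 0.191 ± 0.180 CPM (n = 5), from 0.0434 to 0.469, and no nrpe1 library reached the lowest Col-0 library. No nrpe1 read at all fell in 2349 of the windows (82.4%), and 7 windows with 20 or more summed nrpe1 counts held 85.7% of the nrpe1 counts and 13.7% of the Col-0 counts. Without these 7, Col-0 had 0.804 ± 0.156 CPM (lowest 0.544, highest 0.970) and nrpe1 0.0326 ± 0.0194 CPM (0.0213 to 0.0666). Leaving out windows by their nrpe1 count lowers nrpe1 by construction, and the values below are without the 7 so that signal that does not need NRPE1 weighs less.

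In CPM the mutants formed a graded order at these windows, which changes when each is set against the Col-0 library of its set. The lesions dms5-1 and drd3-3, in the same gene, differed: dms5-1 had 0.0231 and 0.0262 CPM per window, within the nrpe1 range, and drd3-3 had 0.298 and 0.211 CPM, above every nrpe1 library and below every Col-0 library. The single libraries of drd1 and dms3 had 0.184 and 0.203 CPM. The double mutant suvh2/suvh9 had 0.389 CPM, suvh2 0.512 CPM and suvh9 0.956 CPM. The Col-0 library of their set, gp4, had 0.970 CPM. By library totals suvh2/suvh9 held 40.1% of it, suvh2 52.8% and suvh9 98.5%. The drd3-3 libraries held 39.0% and 38.9% of the Col-0 library of their sets. The ago4 libraries had 0.710 and 0.663 CPM, within the Col-0 range. The spt5l libraries had 1.08 and 0.843 CPM, of which the first lay above every Col-0 library. With class scaling they were 85.2% and 80.2% of the Col-0 library of their set.

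Set against the Col-0 library of the same set and scaled to counts outside Pol V windows, drd3-3 kept 31.6% and 33.4% in gained windows, 25.2% and 24.8% in windows with neither change, and 10.5% and 15.4% in windows that lost CHH. The drd1 library kept 8.37%, 5.81% and 2.67% in the same order, and dms3 10.1%, 6.99% and 3.49%. In suvh2/suvh9 the shares were 19.5%, 14.5% and 11.4%. The residue in all 4 mutants was therefore higher in gained than in lost windows, but 1 or 2 libraries each allow no test of the difference, and lower counts per window go with it. In nrpe1 itself the shares were 1.09% to 4.7% in gained and 0.391% to 2.29% in lost windows. The shares of suvh2 (34.1%, 31.7% and 32.6%) and suvh9 (96.1%, 95.1% and 104%) hardly depended on the group of windows.

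**Figure D3:**
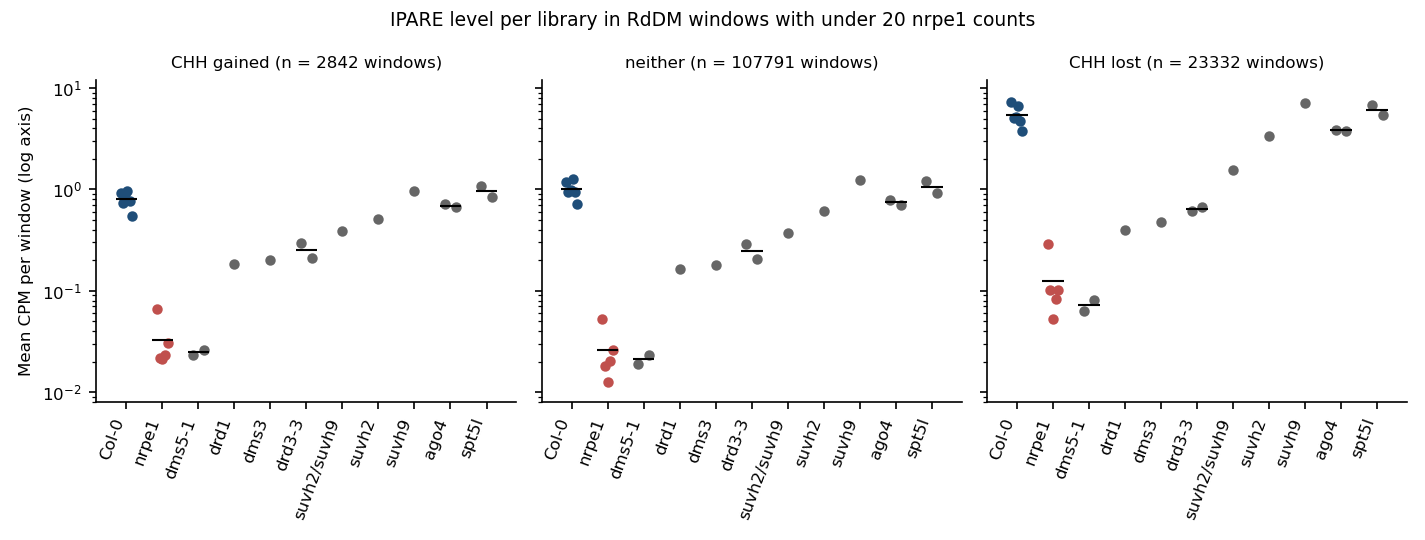
Mean IPARE level per window (CPM, log axis) in each library of 11 genotypes, for RdDM windows with under 20 summed nrpe1 counts that gained CHH, met neither rule or lost CHH. Each point is a library and each line the mean of a genotype with 2 or more; in gained windows Col-0 lies at 0.544 to 0.970 CPM, nrpe1 at 0.0213 to 0.0666 CPM and drd3-3 at 0.298 and 0.211 CPM.

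Only the windows with enough reads could be tested one by one. In the comparison of nrpe1 with Col-0 (edgeR quasi-likelihood test, Benjamini-Hochberg adjusted p under 0.05 over 15296 windows), 43 gained windows had enough reads. Of these, 38 were lower and 2 higher, against 77.6% lower and 18.0% higher among all windows tested. With a looser filter 1287 were tested, 836 were lower and 4 higher (53.8% and 6.88% of all). A window with few nrpe1 reads passes such a filter through its Col-0 reads, so these counts describe the windows that passed. The choice of RdDM windows had also used nrpe1 counts. Over all windows tested the median log2 change was −3.90 with TMM scaling and −5.16 with library totals, and the 2 higher calls were not made with DESeq2 size factors, with class scaling or by DESeq2. The 18.0% higher among all windows depends on the scaling too. With TMM 2750 windows were higher, with library totals 317, with DESeq2 size factors 4, with class scaling 1 and by DESeq2 5.

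The 5 windows with the largest fitted falls in nrpe1 had no nrpe1 read. At chr3:20763751-20763950, between AT3G55960 and JRG21, CHH went from 2.0% to 10%. Col-0 libraries had 7.28 to 19.7 CPM with a median of 15.4. All 5 nrpe1 libraries had 0, which puts nrpe1 at least 46.9-fold lower from a floor of 3 counts over the group (edgeR adjusted p = 1.43e-05). The next were chr5:8571751-8571950 beside the cytochrome P450 gene CYP714A1 (at least 26.3-fold lower), chr5:2374201-2374400 in AT5G07505 (25.4-fold), chr2:18655501-18655700 beside the methionine aminopeptidase gene MAP1A (25.5-fold) and chr1:7973551-7973750 in AT1G22560 (20-fold), with 0 nrpe1 reads in each.

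The 2 higher windows had many reads in both genotypes. At chr4:3060001-3060200, between AT4G05185 and AT4G05195, Col-0 had 36.9 to 391 CPM with a median of 245, and the nrpe1 libraries had 949, 589, 212, 32.7 and 21.4 CPM, so the groups overlap. Its CHH rose from 0% to 5.54%, but CHG fell from 25% to 11.8% and CG from 78.1% to 53.9%. The other, chr4:5268151-5268350, lies at the tRNA gene AT4G08345 inside AT4G08340. The neighbouring window chr4:5268001-5268200 and the tRNA window chr2:3328501-3328700 at AT2G07755 were also among the 5 most read in Col-0 over gp2, gp5 and gp6, and there a single library, Col-0 of gp2, gave 709 of 930 and 317 of 366 Col-0 counts.

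Against Col-0 in a model of all 6 replicated genotypes, 130 gained windows were among the 36843 tested. In dms5-1 110 were lower, against 76.7% of all windows tested, and edgeR and DESeq2 both called 0 higher (2.23% of all by edgeR; 114 gained windows had an unadjusted p under 0.05). In drd3-3 59 were lower, against 41.1% of all, and both tools called 0 higher (5.43% of all by edgeR; 70 with an unadjusted p under 0.05). The drd3-3 count fell to 19 with the replicate block, and no window was called without either of its libraries. In ago4 8 were lower and 9 higher (8.53% and 1.86% of all), and 1 was higher with the block. In spt5l 2 were lower and 2 higher (3.81% and 0.722% of all), and none was called without either spt5l library, while the block left no higher call. Leaving out the Col-0 library of gp3 raised the higher calls to 14 in spt5l and 19 in ago4, of 113 gained windows tested. Higher calls among all windows rose as well. In spt5l they went from 266 of 36843 to 763 of 33182, and in ago4 from 685 to 2134. With the looser filter 2108 gained windows were tested. Then 2 were lower and 6 higher in spt5l (0.695% and 0.449% of all windows tested), 16 and 11 in ago4 (1.53% and 1.84%), 152 and 0 in dms5-1 (12.8% and 0.241%), and 72 and 2 in drd3-3 (7.16% and 0.65%).

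A few windows stood out in the mutants downstream of Pol V. At chr5:3910651-3910850, in the protein-coding gene AT5G12090, CHH rose from 2.82% to 9.32%, CHG from 4.52% to 60.7% and CG from 0.233% to 36.7%. Col-0 had 4.03 to 10.6 CPM there, with a median of 4.66. Both spt5l libraries were above that range at 37.5 and 34.8 CPM (log2 change 2.45 ± 0.52 SE, edgeR adjusted p = 0.00559), and so were both ago4 libraries at 19.8 and 24.5 CPM (2.36 ± 0.52 SE, adjusted p = 0.00408). The suvh2 library had 0.594 CPM there and drd1 0.

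At other windows ago4 had no read while spt5l had reads. At chr1:7973701-7973900 in AT1G22560, Col-0 had 4.55 to 9.89 CPM with a median of 6.67, spt5l 6.77 and 5.83 CPM, and ago4 0 in both libraries, at least 27.6-fold lower (edgeR adjusted p = 0.000147). At chr2:7776901-7777100, between the SET-domain gene SDG37 and AT2G17905, Col-0 had 1.73 to 5.46 CPM, spt5l 6.0 and 3.88 CPM, and ago4 again 0 in both (at least 16.6-fold lower, adjusted p = 0.00119). The window chr2:6353701-6353900 was lower in spt5l (1.94 and 0.971 CPM against 5.46 to 14.9 in Col-0, log2 change −2.89 ± 0.57 SE, adjusted p = 0.00331), and ago4 had 1.15 and 1.39 CPM there. The difference between ago4 and spt5l was not tested.

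The longest gained stretch, chr3:4276801-4288100, was found by joining gained windows within 1 kb, a rule chosen after the data were seen. It spans 11300 bp and holds 62 gained windows of 75, over and between the pseudogenes AT3G13250 (25 gained windows), AT3G13260 (7) and AT3G13270 (15). Its 1-Mb bin held 63 gained windows among 210 RdDM windows with both levels (30.0%). CHH was higher in nrpe1 in 74 of 74 windows, with medians of 6.52% and 16.8%. The 62 gained windows among them are higher by the rule itself. CHG was higher in 68 of 70, from 54.1% to 76.2%, and CG in 50 of 68, from 82.7% to 87.1%. At one end methylation in every context fell to 0 in both genotypes within a few windows. At the other end CG methylation ran on past the last gained window, and the Pol V count peaked there with 310 Col-0 counts at chr3:4288801-4289000, where CHG was 35.4% in Col-0 and 2.5% in nrpe1.

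Pol V reads covered the whole of this stretch in Col-0. Counted over every second window, so that no read counts more than once, Col-0 libraries had 37.3 to 96.0 CPM with a median of 56.4. The nrpe1 libraries had 3.82, 1.70, 3.49, 4.0 and 1.19 CPM, far under the lowest Col-0 library, and dms5-1 had no read in either library. The drd3-3 libraries had 8.91 and 9.07 CPM, drd1 9.05 and dms3 15.4 CPM. By contrast suvh2 had 57.0 CPM, which is 97.3% of the Col-0 library of its set (exact 95% interval from counting error 78.5% to 121%), suvh9 had 54.3 CPM, and the double mutant 28.3 CPM or 48.3% (35.9% to 64.5%). With class scaling, to counts outside Pol V windows, these shares were 62.8% for suvh2, 90.4% for suvh9 and 23.4% for the double mutant. The ago4 libraries had 95.4 and 84.7 CPM and spt5l 81.5 and 66.8 CPM. In tests of whole gene bodies AT3G13250 fell in nrpe1 by 4.01 on the log2 scale (± 0.55 SE, edgeR adjusted p = 1.85e-06) and in drd3-3 by 2.29 (± 0.68 SE, adjusted p = 0.0237), and AT3G13270 fell by 3.88 (± 0.46 SE, adjusted p = 4.13e-07) and 2.94 (± 0.64 SE, adjusted p = 0.00408). Neither gene passed the test in ago4 or spt5l. A gained window in AT3G13270, chr3:4287751-4287950, was called higher in ago4 (log2 change 2.334 ± 0.595 SE, edgeR adjusted p = 0.0135). There ago4 had 5.89 and 6.23 CPM, against 0.576 to 2.85 CPM in Col-0. Higher calls in ago4 depended on the settings, as given above.

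**Figure D4:**
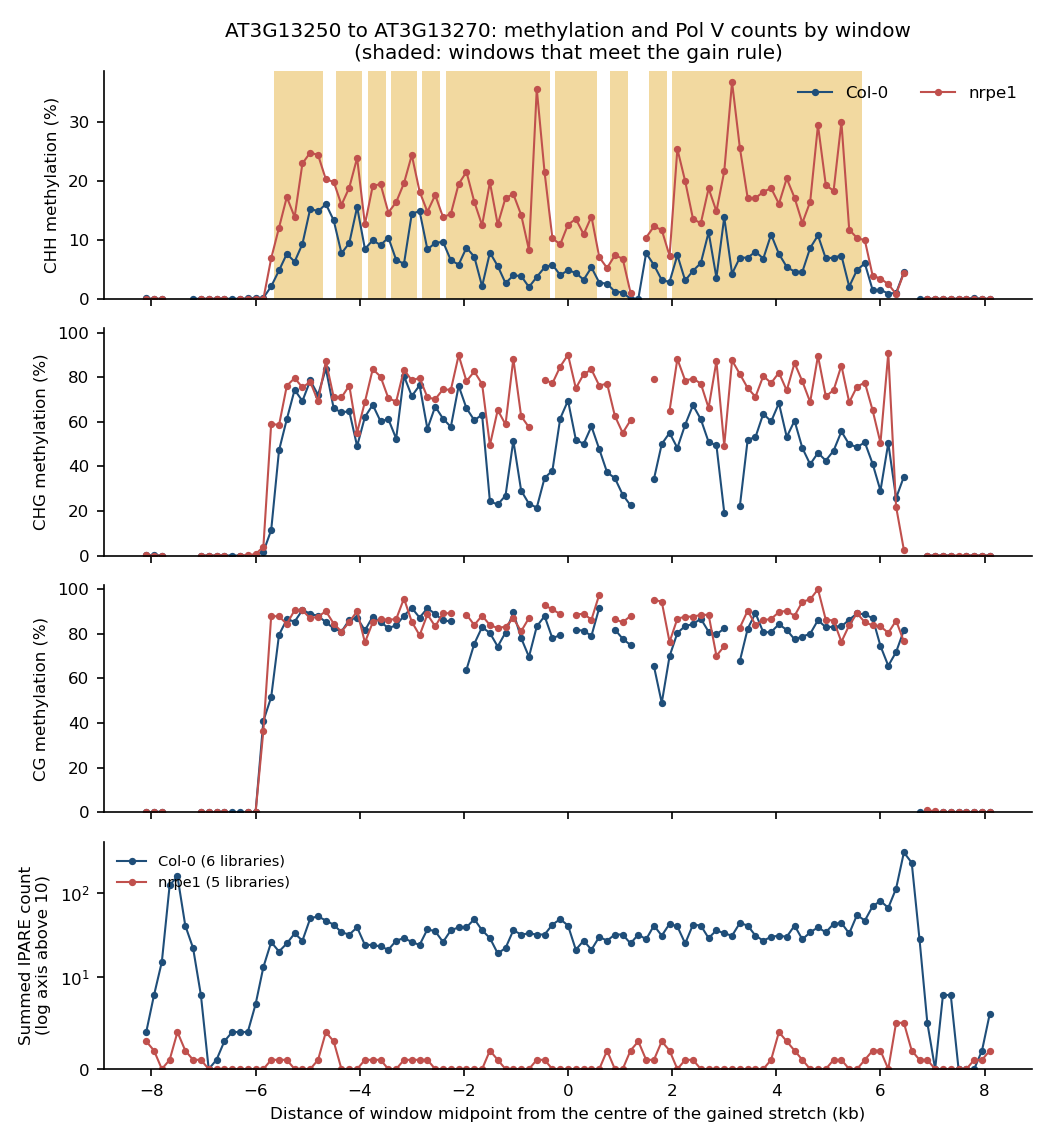
CHH, CHG and CG levels (%) in Col-0 and nrpe1 and summed IPARE counts (log axis above 10) of 6 Col-0 and 5 nrpe1 libraries in each window, against distance (kb) from the centre of the stretch over AT3G13250 to AT3G13270. Shading marks the 62 windows that met the rule, where the nrpe1 line runs above Col-0 for CHH and, in most windows, CHG.

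Another 3 stretches held 10 or more gained windows, each at a pseudogene. The stretch in AT5G35935 (chr5:14083801-14088350) had 22 gained windows of 30, with CHH medians of 12.6% and 19.7% and CHG medians of 48.6% and 74.8%, higher in 30 of 30 windows. The stretch at AT1G33855 (chr1:12291301-12294050), which runs past the pseudogene, had 12 of 18 (the pseudogene itself 6 of 8), with CHH from 5.44% to 11.5% and CHG from 26.2% to 50.9%, higher in 18 of 18. The stretch in AT3G44705 (chr3:16245151-16248950) had 10 of 25, with CHH from 6.8% to 12% and CHG from 39.9% to 52.5%, higher in 25 of 25. CHH was up in 29 of 30, 18 of 18 and 25 of 25 windows of these stretches. These counts include the 22, 12 and 10 gained windows, which are up by the rule itself. At AT5G35935 the change turned within the pseudogene: from 14089051 on, past the gained stretch, CG went from 74.3% in Col-0 to 3.94% in nrpe1, CHG from 38.6% to 0.848% and CHH from 12.8% to 0.198%.

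The SUVH single mutants differed between these stretches. The CPM values are sums over every second window of a stretch, which is named by its pseudogene, and not over the pseudogene. At AT5G35935 Col-0 had 6.37 to 22.6 CPM with a median of 8.68, suvh2 0.891 CPM from 3 counts, which is 9.36% of its Col-0 library (1.81% to 30.5%), suvh9 26.3 CPM or 277% (176% to 449%), and suvh2/suvh9 12.3 CPM or 129% (73.9% to 228%). These shares use library totals, and with class scaling they were 6.04%, 270% and 62.7%. At AT3G44705 Col-0 had 4.55 to 11.0 CPM, suvh2 1.19 CPM or 10.8% (2.77% to 30.7%), suvh9 15 CPM and the double mutant 6.57 CPM. Over the AT1G33855 stretch Col-0 had 8.06 to 18.6 CPM, suvh2 5.64 CPM, suvh9 14.0 CPM and the double mutant 6.98 CPM. Over the pseudogene itself all windows were summed, so the values are not on the scale of those for the stretch. There Col-0 had 3.68 to 13.65 CPM, suvh2 1.48 CPM, suvh9 13.66 CPM and the double mutant 5.34 CPM. With 1 library of each genotype the intervals hold counting error only, and whether the suvh2 lesion or that library sets these values cannot be told apart.

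In drd3-3 a difference between these stretches was not tested. Over the stretches the libraries had 14.0 and 2.27 CPM at AT5G35935, 8.91 and 3.40 CPM at AT3G44705 and 2.55 and 10.2 CPM at AT1G33855, so the pairs spread widely at 2 to 11 counts each. As gene bodies AT5G35935 changed by −0.98 (± 0.74 SE, edgeR adjusted p = 0.369) and AT3G44705 by 0.32 (± 0.57 SE, adjusted p = 0.733) in drd3-3, while in nrpe1 the first changed by −3.41 (adjusted p = 8.61e-05) and the second by −5.52 (adjusted p = 2.82e-07). In ago4, AT1G33855 had a log2 change of 1.83 with an adjusted p of 0.0713, and over every second window 1.88 with an adjusted p of 0.0186. Its gained window chr1:12291751-12291950 was called higher in ago4 (log2 change 2.325 ± 0.633 SE, edgeR adjusted p = 0.0208). There ago4 had 5.89 and 5.54 CPM, against 0.708 to 3.64 CPM in Col-0. Genes with 3 or more gained windows were picked out only once these data were known. They hold RdDM windows, a class chosen with nrpe1 counts, so a fall in nrpe1 was largely set in advance. The gene bodies tested as a whole need hold no RdDM window and are no matched comparison. In nrpe1 104 of 106 were lower, against 41.7% lower among all 9523 gene bodies, and 109 of 119 were lower in dms5-1 (31.5% of 17027), 24 in drd3-3 (13.5%) and 4 in ago4 (1.13%). The drd3-3 count was 2 and 1 without either of its libraries, 16 with the replicate block, 52 with library totals, 50 with DESeq2 size factors, 60 with class scaling and 62 by DESeq2. The dms5-1 count was 63 without its gp6 library, and the ago4 count 2 and 1 without either of its libraries. Over all 17027 gene bodies the lower calls in drd3-3 moved with the settings as well. They were 2303 in the main fit and 1578 with the replicate block. They were 3913 with library totals, 3709 with DESeq2 size factors, 4389 with class scaling and 3772 by DESeq2. In spt5l edgeR and DESeq2 both called 0 of 119 (0.117% of all were lower and 0.0411% higher by edgeR), and 0 had an unadjusted p under 0.05.

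A small subset gained methylation in all 3 contexts. In 52 of the 2198 gained windows with all levels (2.37%) CG and CHG also rose by 20 points or more, against 0.269% of windows with neither change and 0.0851% of windows that lost CHH. The 20-point limit was set after the data were seen. In these 52, median CG went from 41.6% to 86.2%, CHG from 11.9% to 50.2% and CHH from 2.75% to 10.8%. They differed from the other gained windows in place, with a median protein-coding share of the bin of 57.8% against 16.9%, and 12 of 52 in a protein-coding gene (23.1% against 7.19%). Their median Col-0 count was 40 against 8, and 29 of them had no nrpe1 read. Of the 9 that could be tested in nrpe1 all were lower (77.6% of all windows tested), but the choice of RdDM windows had used nrpe1 counts. Of 22 tested in the mutants 21 were lower in dms5-1 (76.7% of all) and 11 in drd3-3 (41.1%). In ago4 3 were higher (1.86%) and in spt5l 2 (0.722%). These calls depend on the settings as given above. The 2 higher in spt5l are chr5:3910651, described above, and chr3:22232251, described below. The window chr5:3910651 is also among the 3 higher in ago4.

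Windows at chr2:18655501, chr5:2374201 and chr5:3910651, named above, are among the 52. The most read of them lies at AT3G60164 and AT3G60170, where methylation reached further in nrpe1. At chr3:22232251-22232450 CG went from 0% in Col-0 to 76.3% in nrpe1, CHG from 2.0% to 34.3% and CHH from 0.2% to 11.0%. At chr3:22232401-22232600 CG went from 33.1% to 86.8%, CHG from 14.0% to 65.0% and CHH from 2.9% to 18.6%. Windows to one side were nearly free of methylation in both genotypes, and those to the other side, from 22232851 on, were methylated in both, with CHH from 16.3% to 17.8% at 22232851 but from 21.2% to 12.6% at 22233301. The gained windows covered the edge of a methylated stretch.

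This edge carried the most Pol V reads of the locus. The window at 22232401 had 11.8 to 30.4 CPM in Col-0 with a median of 24.6, and 0.956, 1.36, 0, 0.666 and 0 CPM in nrpe1. The spt5l libraries had 48.0 and 74.0 CPM, above every Col-0 library, ago4 25.7 and 31.6, suvh2 19.3, suvh9 15.9, drd3-3 5.09 and 6.80, suvh2/suvh9 2.05, dms3 0.812 and drd1 0.696 CPM, and dms5-1 had 0 in both (at least 18.3-fold lower, edgeR adjusted p = 0.000887). The window at 22232251 was higher in spt5l, with 15.5 and 25.4 CPM against 3.64 to 8.79 in Col-0 (log2 change 1.78 ± 0.43 SE, adjusted p = 0.0139).

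**Figure D5:**
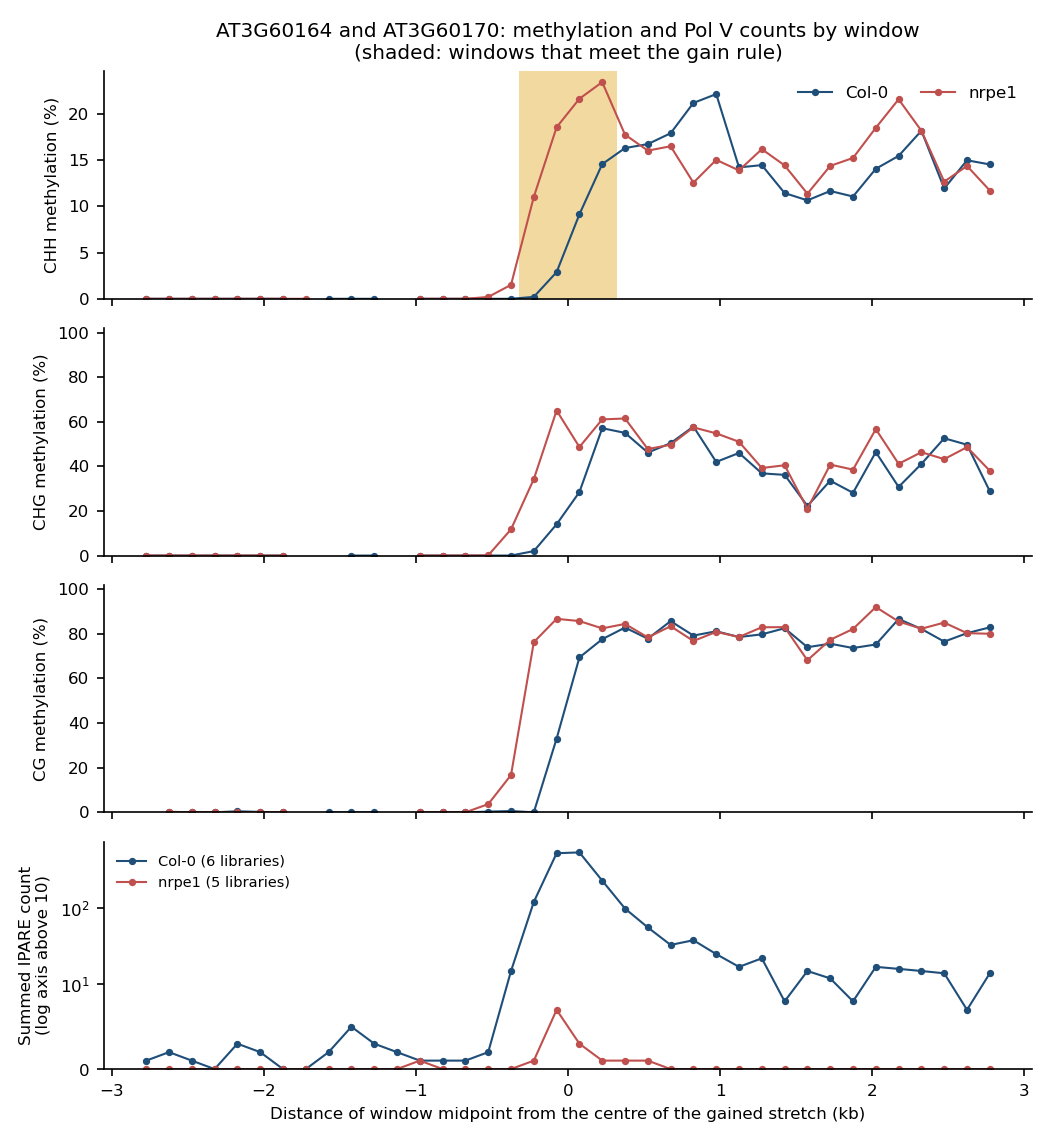
CHH, CHG and CG levels (%) in Col-0 and nrpe1 and summed IPARE counts (log axis above 10) of 6 Col-0 and 5 nrpe1 libraries in each window, against distance (kb) from the centre of the 4 gained windows at AT3G60164 and AT3G60170. The nrpe1 methylation curves rise before the Col-0 curves from left to right, and the Col-0 counts peak at 540 at the same place.

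The largest single gains were of another kind. CHH went from 20.3% to 82.5% at chr4:3262801-3263000 and from 33.1% to 93.2% in the window after it, with 3 and 1 Col-0 counts in all. It went from 11.2% to 70.4% at chr2:3092701-3092900 and from 0% to 55.7% at chr1:9679351-9679550 in AT1G27780. None of these 4 had a CHG level in both genotypes. The fifth, chr1:15106951-15107150, did: CHH went from 11.2% to 62.7% and CHG from 27.7% to 43.1%. Of 12 genes known as RdDM targets or regulated by promoter methylation, 10 had RdDM windows with both levels within 1 kb. None of these 64 windows gained, where 2.12% of them would be 1.4 windows. The known targets EVD, ATMU1, ATGP1, TSI and the ONSEN copies could not be matched to the gene table and were left out. At FWA, the imprinted homeobox gene silenced by promoter methylation, mean CHH of the RdDM windows fell from 15.3% to 0.11%, and at SDC, an F-box gene silenced by RdDM, from 5.6% to 1.15%.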

How the data were processed

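The authors deposited whole-number read counts of 24 IPARE libraries in 200-bp windows placed at steps of 150 bp, and the methylation fraction per window and context averaged over the bisulfite samples of a genotype, without coverage, so its depth is unknown. The submitters' processing notes name UMI-tools, cutadapt, Bowtie2, Bismark and TAIR10, without versions. Window coordinates are TAIR10, and gene names come from RefSeq's TAIR10.1 table. No sequence is printed, since no genome of this build was used here.

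Fractions were read as percentages. Counts were tested with edgeR 4.0.16 in R 4.3.3 (quasi-likelihood, TMM, filterByExpr with a minimum of 10 and a total of 15, adjusted over all windows tested at 0.05), and by DESeq2 1.42.0. A looser filter kept windows with 10 counts in all. The test code was also run on simulated counts with few changed windows, capped dispersions and no effect of the set. That run cannot show how the scaling or the fit without the block behaves in these data. A read can fall in the 50 bp common to neighbouring windows. Class scaling divides by counts in windows not transcribed by Pol V without rDNA.

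Gained windows and all lists were chosen with earlier results of these data known. Named were the 10 regions with most windows, the 5 windows with most Col-0 counts in gp2, gp5 and gp6, the windows with the largest called changes and the largest gains; stretches and windows gaining in all contexts were added after seeing the data. Same-set Col-0 and nrpe1 libraries correlated in their deviations at 0.115 to 0.288 over 5 pairs (other sets −0.18 to 0.211). A fit with sets as a replicate block was therefore run as an alternative. The main fits had no term for the set, so p-values and call counts ignore it unless the block is named. Separate plantings are not stated for replicates, so the spread behind a p-value may be technical. Intervals and floors cover counting error only.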

Additional observations from a re-analysis of the deposited data

Results flagged for a closer look

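Of 38 groups of libraries with 5 or 6 members whose spread was examined over the named regions and windows and the mean level, each with at least 1 library above 3 counts (a limit set after seeing the data), 8 held a library set apart from the others by Dixon's criterion, and chance alone gives about 5% of groups. In Col-0 the gp2 library stood apart at chr4:5268001-5268200 (173.9 CPM, others 4.03 to 17.3) and at chr2:3328501-3328700 (77.8 CPM, others 2.2 to 3.9), both at tRNA genes. The gp3 library stood apart over the AT5G35935 stretch (22.6 CPM, others 6.37 to 10.1) and at chr5:3910651-3910850 (10.6 CPM, others 4.03 to 6.13). The gp6 library was low at chr2:18655501-18655700 (1.82 CPM, others 7.74 to 10.1). Among nrpe1 libraries the untagged one was highest in the mean level of the gained windows without the 7 of 20 or more nrpe1 counts (0.0666 CPM, others 0.0213 to 0.0306), at AT5G35935 (2.39 CPM, others 0 to 0.339) and at chr2:3328501-3328700 (59.8 CPM, others 3.33 to 5.77).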

How the results depend on the processing

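The number of gained windows was 414 at a ratio of 2 and 10 points, 492 at 1.5 and 10 points, and 23631 by the mirrored rule. Retained shares moved beyond the spread of the libraries for spt5l under class scaling (83.6%), for dms5-1 in the 414 windows (3.06%) and for drd3-3 without high nrpe1 counts (39.0%), with 1 window per region (42.1%), in the 414 windows (38.3%) and under class scaling (34.4%). Class scaling without high nrpe1 counts, chosen after seeing the data, gave 2.51% for nrpe1, 82.7% for spt5l, 3.2% for dms5-1 and 32.5% for drd3-3. Windows lower in nrpe1 were 836 with the loose filter, 8 among the 414, and 15 to 64 when 1 library was left out; higher ones were 1 with library totals, 0 with DESeq2 size factors, class scaling, DESeq2 or among the 414, 4 loosely, and 1 to 5. For spt5l, lower calls were 1 by DESeq2, 0 among the 414 and 0 to 3 without a library, and higher calls 1 with either other scaling, by DESeq2 or among the 414, 6 loosely and 0 to 14. For ago4, lower calls were 16 loosely, 3 among the 414 and 5 to 8, and higher calls 2 with library totals, 1 with the other scalings or DESeq2, 3 among the 414 and 1 to 19. For drd3-3, lower calls were 95 with library totals, 108 with DESeq2 size factors, 107 with class scaling, 100 by DESeq2, 10 among the 414 and 0 to 69, and higher calls 2 loosely and 0 to 2. For dms5-1, 22 were lower among the 414. With the replicate block, higher calls were 0 in spt5l, 1 in ago4, 1 in dms5-1 and 2 in drd3-3, and lower calls in drd3-3 19; counts in nrpe1 stayed within 1.5 times. Calls over all windows tested moved with the settings too. In drd3-3 the lower calls among all 36843 windows were 15127 in the main fit, 24769 with library totals and 6638 with the replicate block. The cause of these moves was not tested, apart from the smaller number of windows among the 414. Windows on rDNA changed no value. Methylation depth is unknown, and at a median of 9 Col-0 counts most windows could not be tested singly.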
